A study of Mus musculus with 8 samples.

Results

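The genes that carry iron into cells, store it, let it out and sense it were examined in hearts of WT and Mettl3 KO mice. Membership was set by role, though the group was chosen with earlier results of these data known, and it held 10 of the 23045 genes listed: Tfrc and Slc11a2 for uptake, Fth1, Ftl1 and Ncoa4 for storage, Slc40a1 and Hamp for export, Aco1 and Ireb2 for sensing, and Hmox1 for the release of iron from heme. All 10 passed the filter on low values. The comparison addressed which heart transcripts differ when METTL3, the enzyme that adds a methyl group to adenosines of RNA (m6A), is lost from heart muscle cells.

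Total RNA of mouse heart had been sequenced in 8 libraries, 4 of WT mice (Mettl3lox/lox) and 4 of Mettl3 KO mice (Mettl3lox/lox:αMHC-MerCreMerpos). Every animal of both groups thus carried floxed Mettl3, and per the study's methods both groups had been given 100 µg tamoxifen per 1 g of body weight on each of 7 days, at an age of 10 to 16 weeks. MerCreMer is a Cre recombinase between mutated estrogen receptor domains that tamoxifen activates, and the αMHC promoter limits it to cardiomyocytes, so Mettl3 of other heart cells is not targeted. No group carried the Cre without floxed Mettl3, so the recombinase and the deletion cannot be told apart. Sex and the time from tamoxifen to tissue collection are not given in the sources used here. The labels do not say that each library is 1 animal, so the p-values measure the spread between these libraries.

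Values are normalized read counts, which summed to 2839589 to 2916986 per library. Mettl3 itself averaged 116 ± 12.8 in WT and 72.3 ± 4.65 in Mettl3 KO hearts (SD, n = 4 each), a log2 fold change of -0.67 (SE 0.10, adjusted p = 0.000184). Esr1, whose reads can come from the receptor part of the transgene, averaged 16.8 and 768.5. Among all 20313 genes tested with limma, 7.91% had an adjusted p under 0.05. The share higher in Mettl3 KO hearts was 4.72% and the share lower was 3.19%. Of genes averaging 20 or more, 11.9% were called, and the libraries of the 2 genotypes did not overlap in 11.5% of all tested genes. Over all tested genes the log2 fold change had a median of -0.01 and a median size of 0.17. Reads come from whole tissue, in which fewer cells of a type and less RNA per cell cannot be told apart.

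Cells take up iron mainly as transferrin bound to the transferrin receptor, and iron that is not used is locked inside ferritin, a shell of heavy and light chains. Ferroportin is the only known iron exporter of mammalian cells, and the peptide hormone hepcidin removes it from the cell surface. Iron-regulatory proteins 1 and 2 bind a hairpin named the iron-responsive element (IRE) when iron is scarce. Bound near the start of an mRNA they hold back its translation, as for ferritin and ferroportin, and bound after the coding part of the transferrin receptor mRNA they protect it from decay. The level of Tfrc mRNA is thus a readout of this system, whereas ferritin is set largely at translation, which RNA-seq does not measure. The heart depends on iron for its mitochondria, and both iron lack and iron overload damage it.

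The IRE of 4 members is shown because it is the feature through which they are known to be jointly regulated. The pattern searched was a C, 5 bases, the loop CAGTGN and 5 bases that pair with the first 5 (G with U allowed). It was sought on the sense strand of GENCODE vM21 transcripts. Some transcript held it in 294 of 21901 protein-coding genes (1.34%), whereas the matches below are those in the transcript used for each gene. Each line gives 29 bases, written as DNA 5′ to 3′, with the 6-base loop in capitals. The hairpins lie in the 5′ UTR of Fth1, Ftl1 and Slc40a1, with the C at transcript position 93, 84 and 96, and in the 3′ UTR of Tfrc, with the C at 3321, 3700, 3765 and 3812 of 4890 bases, after a coding part that ends at 2429.
Fth1: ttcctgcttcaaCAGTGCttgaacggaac
Ftl1: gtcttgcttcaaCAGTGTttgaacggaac
Slc40a1: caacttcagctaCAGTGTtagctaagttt
Tfrc at 3321: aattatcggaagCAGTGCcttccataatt
Tfrc at 3700: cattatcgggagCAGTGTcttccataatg
Tfrc at 3765: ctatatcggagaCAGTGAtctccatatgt
Tfrc at 3812: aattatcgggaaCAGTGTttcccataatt
The Fth1 and Ftl1 hairpins shared 26 of 29 bases. Neighbouring hairpins differed more within Tfrc, where those at 3321 and 3700 shared 25 bases and the one at 3765 shared 18 or 19 with each of the others. A match describes the letters only. In the transcript used for each gene, no match was found for Slc11a2, Hamp, Ireb2, Aco1, Hmox1 or Ncoa4. Matches in other transcripts of these genes were not kept, so this does not say that the genes lack an IRE.

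**Figure D1:**
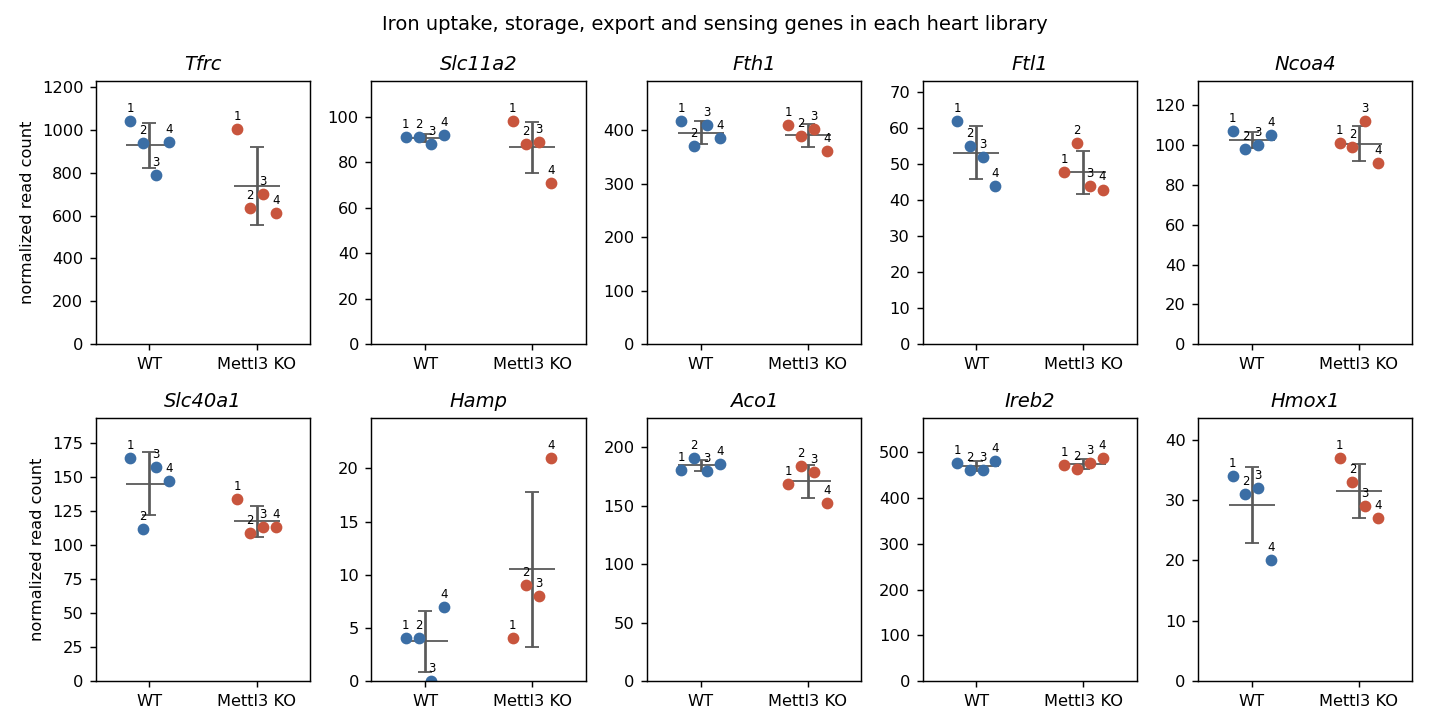
Normalized read count (vertical axes, from 0) of the 10 iron genes in each library, WT in blue and Mettl3 KO in red, with replicate numbers beside the points and the mean and SD as grey lines (n = 4 each). The libraries of the 2 genotypes overlap for every gene, and for Tfrc the overlap comes from Mettl3 KO replicate 1 at 1003, since the others lie between 612 and 702.

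Of the 10 iron genes 1, Tfrc, passed the test, against 7.91% of all tested genes, and it fell. The WT and Mettl3 KO libraries did not separate completely for any member (0 of 10), beside 11.5% of all tested genes that did. By sign 3 members were above and 7 below the WT mean on the log2 scale. Their log2 fold changes had a median of -0.05 and a median size of 0.12, beside -0.01 and 0.17 over all tested genes. For 6 members the 95% interval of the difference lay within 0.5 on the log2 scale of 0 in both directions.

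Tfrc (ENSMUSG00000022797, mm39 chromosome 16, 32427738 to 32451612, plus strand) encodes transferrin receptor 1. It had 1040, 936, 790 and 942 normalized read counts in WT replicates 1 to 4, and 1003, 635, 702 and 612 in Mettl3 KO replicates 1 to 4. Of the Mettl3 KO libraries 3 lay under the lowest WT library, and the other, replicate 1, lay above all WT libraries but replicate 1. The means were 927 ± 103 and 738 ± 181 (SD, n = 4 each), so the Mettl3 KO level was 79.6% of WT. The log2 fold change was -0.35 (SE 0.10, 95% interval -0.57 to -0.14, limma adjusted p = 0.0394). This call rests on few libraries. Without Mettl3 KO replicate 1 the value was -0.51 (adjusted p = 3.59e-05). Without Mettl3 KO replicate 2, 3 or 4 it was -0.29, -0.34 and -0.27 (adjusted p = 0.188, 0.142 and 0.190), and without WT replicate 1, 2 or 4 it was -0.29, -0.34 and -0.34 (adjusted p = 0.154, 0.111 and 0.119), so the call was lost each time. It was also lost without the mean-variance trend (adjusted p = 0.351).

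Mettl3 KO replicate 1, with a WT level of Tfrc, lay with WT for 3 of 6 atrial genes listed, which were picked after their values were seen. Myl7, the atrial myosin light chain, had 26, 21, 0 and 23 in WT hearts against 23, 65, 90 and 119 in Mettl3 KO replicates 1 to 4. Bmp10, an atrial growth factor, was at 0 in all WT libraries and in Mettl3 KO replicate 1, and at 195, 158 and 358 in replicates 2 to 4. Sln, the atrial calcium pump inhibitor sarcolipin, had 12, 6, 0 and 4 in WT hearts against 10, 34, 29 and 64 in Mettl3 KO hearts. The other 3 genes did not follow this pattern. Nppa, the atrial natriuretic peptide gene, had 175 to 292 in WT hearts and 452, 410, 508 and 481 in Mettl3 KO replicates 1 to 4, and Pam had 1463 to 1539 and then 1840, 1777, 1895 and 1810, so replicate 1 lay with the other Mettl3 KO libraries. Kcnj3, an atrial potassium channel, had 532 to 616 in WT hearts and 438, 572, 566 and 565 in Mettl3 KO hearts, with replicate 1 below every other library. Of the 6 genes 5 were called higher in Mettl3 KO hearts, with sums of 2254 to 2451 in WT and 2763 to 3397 in Mettl3 KO libraries, and 1 of the 6 was below the WT mean. In a fit with an index of Myl7, Bmp10 and Sln as a covariate, added after seeing the data, the Tfrc difference was -0.06 (adjusted p = 0.881). In Mettl3 KO replicates 2 to 4 the level of these 3 genes and the genotype cannot be told apart.

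**Figure D2:**
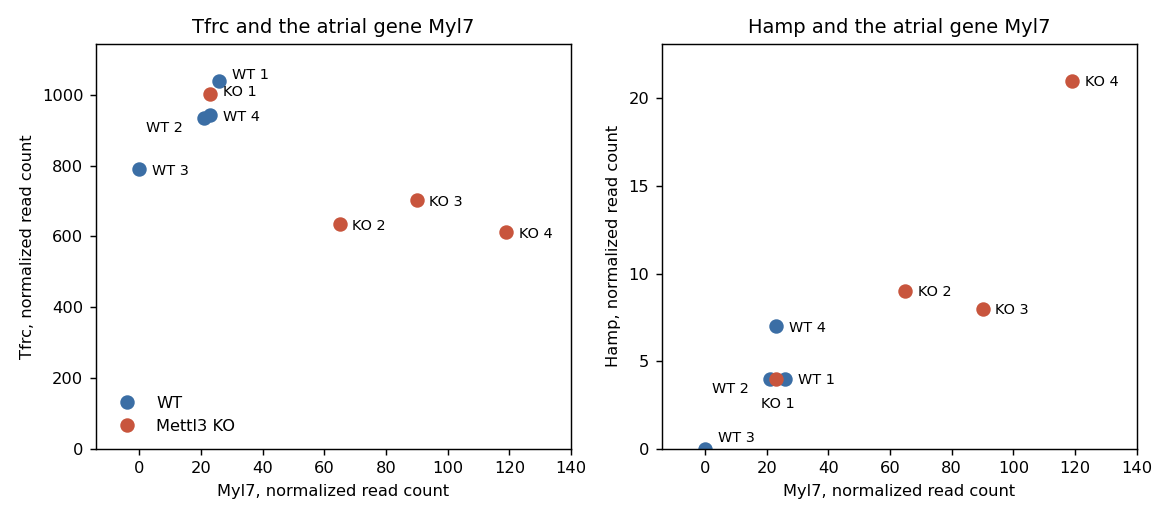
Normalized read count of Tfrc (left) and Hamp (right) against that of the atrial gene Myl7 in each library, WT in blue and Mettl3 KO in red. Mettl3 KO replicate 1, with Myl7 at 23, lies among the WT libraries in both panels, and Mettl3 KO replicates 2 to 4, with Myl7 at 65 to 119, have Tfrc at 612 to 702 and Hamp at 8 to 21.

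Slc11a2 (ENSMUSG00000023030, chromosome 15, 100285779 to 100322953, minus strand) encodes DMT1, which moves ferrous iron out of endosomes after the transferrin receptor has delivered it. Its values were 91, 91, 88 and 92 in WT hearts against 98, 88, 89 and 71 in Mettl3 KO replicates 1 to 4. The WT libraries lay within 4 counts of each other, and the Mettl3 KO libraries lay on both sides of them. The means were 90.5 ± 1.73 and 86.5 ± 11.3 (SD, n = 4 each). The log2 fold change was -0.07 (SE 0.11, 95% interval -0.29 to 0.15, adjusted p = 0.776), or 0.02 when Mettl3 KO replicate 4 was left out.

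The ferritin genes did not pass the test. Fth1 (ENSMUSG00000024661, chromosome 19, 9957962 to 9962462, plus strand), the heavy chain with the ferroxidase site, had 417, 370, 409 and 386 in WT hearts against 410, 390, 402 and 361 in Mettl3 KO hearts. The ranges of the genotypes covered each other almost fully, and the Mettl3 KO mean was 98.8% of WT. The log2 fold change was -0.02 (SE 0.06, adjusted p = 0.922), and its interval runs from 0.91 to 1.07 as a fold. Ftl1 (ENSMUSG00000050708, chromosome 7, 45107368 to 45109308, minus strand), the light chain that helps the mineral core form, had 62, 55, 52 and 44 in WT hearts against 48, 56, 44 and 43 in Mettl3 KO hearts. Its libraries overlapped as well, with means of 53.3 ± 7.46 and 47.8 ± 5.91 (SD, n = 4 each). Its log2 fold change was -0.15 (SE 0.14, 95% interval -0.44 to 0.14, adjusted p = 0.624), and it was -0.076 without WT replicate 1, -0.24 without WT replicate 4 and -0.23 without Mettl3 KO replicate 2. The ratio of Fth1 to Ftl1 counts was 7.52 ± 0.99 in WT and 8.26 ± 0.92 in Mettl3 KO hearts (SD, n = 4 each), a description with no test.

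How reads were counted bears on both ferritin genes. Reads that map to several places had been removed, and of the 897 windows of 72 bases (the read length) in the Ftl1 transcript 767, or 85.5%, also occur in 8 other genes of GENCODE vM21, among them the pseudogenes Ftl1-ps1, Ftl1-ps2 and Ftl2-ps. That leaves 130 windows, so the Ftl1 level and its ratio to Fth1 are uncertain. Fth1 shared 36 of 858 windows (4.20%) with Gm6977. Duplicate reads had been removed too, which in single-end data leaves at most about 1 read per start position. The WT mean of Fth1 came to 48.1 counts per 100 unshared windows and that of Ftl1 to 41.0, against 19.2 for Tfrc and 8.26 or less for the other members. Large differences in these 2 genes would be narrowed by this limit. The ferritin pseudogenes listed, Fth-ps2, Fth-ps3 and Fth1-ps, had 0 to 6 counts.

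Ncoa4 (ENSMUSG00000056234, chromosome 14, 31881822 to 31901812, plus strand) is the receptor that takes ferritin to the lysosome, which frees its iron. It had 107, 98, 100 and 105 in WT hearts against 101, 99, 112 and 91 in Mettl3 KO hearts. The highest and the lowest library were both Mettl3 KO. Its log2 fold change was -0.03 (SE 0.09, 95% interval -0.22 to 0.17, adjusted p = 0.924). Leaving out Mettl3 KO replicate 4 gave 0.02. Of its 3272 windows of 72 bases 1663 (50.8%) also occur in Gm6768, so its level is uncertain.

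Of the export genes, Slc40a1 (ENSMUSG00000025993, chromosome 1, 45947228 to 45965683, minus strand) encodes ferroportin. It had 164, 112, 157 and 147 in WT hearts against 134, 109, 113 and 113 in Mettl3 KO replicates 1 to 4. WT replicate 2 lay with the Mettl3 KO libraries, and the other WT libraries lay above them all. The means were 145 ± 23.1 and 117 ± 11.3 (SD, n = 4 each), 80.9% of WT. The log2 fold change was -0.29 (SE 0.11, 95% interval -0.52 to -0.07), and the adjusted p of 0.100 missed the threshold. Without WT replicate 2 the value was -0.41 (adjusted p = 0.0130). Leaving out Mettl3 KO replicate 1 gave -0.36 (adjusted p = 0.0444), so either of these libraries decides the call. With the atrial index as a covariate it was -0.08 (adjusted p = 0.873). Tfrc and Slc40a1 counts stood in a ratio of 6.53 ± 1.37 in WT and 6.23 ± 0.89 in Mettl3 KO hearts (SD, n = 4 each).

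Ferroportin is abundant in macrophages that recycle red cells, so the markers of those cells are given beside it. Of 10 macrophage markers 1 was called, the monocyte receptor Ccr2, which was higher, 7 had a log2 fold change below 0, and their sums were 1137 to 1400 in WT and 1165 to 1419 in Mettl3 KO libraries. Of 5 red blood cell markers tested limma called 0 (2 had an unadjusted p under 0.05), and all 5 had a log2 fold change below 0, with sums of 105 to 179 in WT and 75 to 112 in Mettl3 KO libraries. Endothelial cells express it too, and of 7 endothelial markers 4 were called, 3 lower and 1 higher, with sums of 4549 to 4715 in WT and 4185 to 4556 in Mettl3 KO libraries. Cd163, a macrophage receptor outside that marker list, was lower in Mettl3 KO hearts (log2 fold change -0.35, adjusted p = 0.0168). The part of these cell types in the Slc40a1 values was not tested. Limma called 0 of 6 smooth muscle and pericyte markers (2 had an unadjusted p under 0.05).

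Hamp (ENSMUSG00000050440, chromosome 7, 30641793 to 30643457, minus strand) encodes hepcidin, which is made mainly in liver and also in the heart. It had 4, 4, 0 and 7 in WT hearts against 4, 9, 8 and 21 in Mettl3 KO replicates 1 to 4. Mettl3 KO replicates 2 to 4 lay above every WT library, and replicate 1 lay among them. The means were 3.75 ± 2.87 and 10.5 ± 7.33 (SD, n = 4 each). The log2 fold change, on the log2(value + 1) scale that understates changes of low genes, was 1.41 (SE 0.53, 95% interval 0.30 to 2.51), and the adjusted p of 0.117 missed the threshold. It was 0.87 with a pseudocount of 4 and 1.67 with a pseudocount of 0.5. At these counts the interval spans a fold of 1.23 to 5.70, so the size is not resolved. The value was 0.77 without WT replicate 3, the library at 0, and 1.03 without Mettl3 KO replicate 4. It was -0.65 (adjusted p = 0.686) with the atrial index as a covariate. Of 6 hepatocyte markers 1 is listed, Ttr, at 0 to 2 counts. The near-copy Hamp2 had 0 to 3 counts and shared 16 of 339 windows (4.72%) with Hamp.

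**Figure D3:**
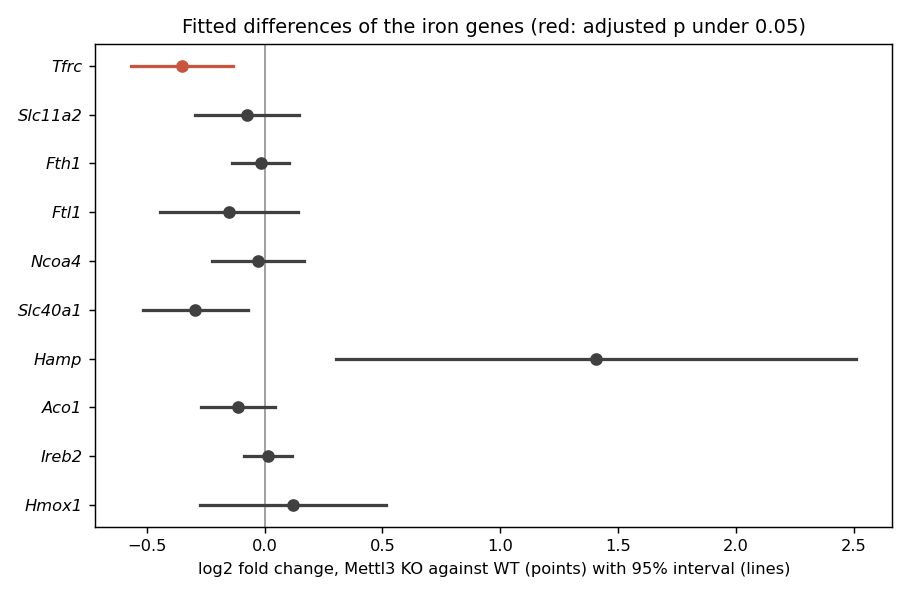
Log2 fold change (Mettl3 KO against WT, horizontal axis) of each iron gene as points with 95% intervals as lines, and Tfrc, the gene with an adjusted p under 0.05, in red. Tfrc at -0.35 and Slc40a1 at -0.29 lie below 0 with their whole intervals, Hamp at 1.41 lies above 0 with the widest interval, and the intervals of the other 7 include 0.

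Neither of the RNA-binding sensors passed the test. Ireb2 (ENSMUSG00000032293, chromosome 9, 54771073 to 54819814, plus strand), which encodes iron-regulatory protein 2, had 477, 462, 461 and 482 in WT hearts against 473, 463, 476 and 488 in Mettl3 KO hearts. Its libraries varied by 2.25% (CV) in WT and 2.17% in Mettl3 KO hearts, the smallest spread among the members in Mettl3 KO hearts. Ireb2 differed by a log2 fold change of 0.01 (SE 0.05, adjusted p = 0.927), and its interval allows a fold of 0.94 to 1.08. Aco1 (ENSMUSG00000028405, chromosome 4, 40143081 to 40198338, plus strand) encodes iron-regulatory protein 1, which is a cytosolic aconitase while it holds an iron-sulfur cluster. It had 181, 191, 180 and 186 in WT hearts against 169, 184, 179 and 152 in Mettl3 KO hearts. Mettl3 KO replicates 1, 3 and 4 lay below all WT libraries and replicate 2 lay among them. Aco1 had a log2 fold change of -0.11 (SE 0.08, 95% interval -0.27 to 0.04, adjusted p = 0.452), and leaving out Mettl3 KO replicate 4 gave -0.057.

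Hmox1 (ENSMUSG00000005413, chromosome 8, 75820249 to 75827217, plus strand), the inducible heme oxygenase, had 34, 31, 32 and 20 in WT hearts against 37, 33, 29 and 27 in Mettl3 KO hearts. Apart from WT replicate 4 at 20, every library lay between 27 and 37. The means were 29.3 ± 6.29 and 31.5 ± 4.43 (SD, n = 4 each). A log2 fold change of 0.12 was fitted (SE 0.19, 95% interval -0.27 to 0.52, adjusted p = 0.801), and without WT replicate 4 it was -0.05. With the atrial index as a covariate it was 0.40 (limma adjusted p = 0.548).

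The order of the 10 transcripts by level depended on the length they were set against. As WT counts per 100 unshared windows of the transcript, Fth1 at 48.1 (range of the 4 libraries 45.0 to 50.7) and Ftl1 at 41.0 (33.8 to 47.7) were highest and overlapped, followed by Tfrc at 19.2 (16.4 to 21.6), Ireb2 at 8.26 and Ncoa4 at 6.37. Aco1 at 4.91 (4.79 to 5.08) and Slc40a1 at 4.40 (3.39 to 4.97) overlapped, Slc11a2 stood at 3.09, and Hmox1 at 1.95 (1.34 to 2.27) and Hamp at 1.16 (0 to 2.17) overlapped. Per kilobase of all annotated exons, which counts 3469 bases for Fth1 where the transcript used here has 929, Tfrc came first instead, with Tfrc at 150, Fth1 at 114 and Ftl1 at 39.7. On that scale Ireb2 at 49.6 lay above Ftl1, while Aco1 at 41.0 (40.0 to 42.5) overlapped with Ftl1 (32.8 to 46.3). Ncoa4 at 10.9 (10.5 to 11.4) lay below Slc40a1 at 16.1 and Slc11a2 at 14.2. The range of Hmox1 at 16.7 (11.4 to 19.4) met that of Ncoa4 at its lower end. No order of the 10 genes is therefore drawn where these scales differ. Tfrc counts per Fth1 count were 2.35 ± 0.28 in WT, between 1.93 and 2.53, and 1.88 ± 0.38 in Mettl3 KO hearts, between 1.63 and 2.45 (SD, n = 4 each). The Ireb2 to Aco1 ratio was 2.55 ± 0.094 and 2.80 ± 0.30. These ratios are of counts and not of levels per length, and lengths came from GENCODE vM21.

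The genes most like Tfrc, Slc40a1 and Hamp over the 8 libraries are given as a description, with Pearson's r of log2 values among 12018 genes and no test, since the libraries share genotype and composition. For Tfrc they were the lncRNA F630028O10Rik (0.975), the interferon-induced Oas2 (0.972) and Mall (0.965). Oas2 had 119, 104, 101 and 105 in WT hearts against 118, 71, 85 and 73 in Mettl3 KO hearts, so its Mettl3 KO replicate 1 also lay with WT. For Slc40a1 they were the guanylate cyclase subunit Gucy1a2 (0.984), the chaperone regulator Bag4 (0.968) and Cdc42ep4 (0.967), and for Hamp Rnpc3 (0.968), Sipa1l1 (0.966) and Pwp2 (0.964).

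To place the 10 genes in their pathway, 84 further genes of iron handling were listed by textbook role, again with earlier results known. Of these 76 were tested and 12 were called (15.8%), 7 higher and 5 lower in Mettl3 KO hearts, beside 7.91% of all tested genes and 11.9% of those averaging 20 or more. In 16 of the 76 (21.1%) the libraries did not overlap, beside 11.5% of all tested genes. The median log2 fold change was 0.01. Without the mean-variance trend 1 of the 12 calls was kept, that of Hmox2, and with the atrial index as a covariate 5 of the 12 were kept, those of Hmox2, Scara5, Lrp1, Hjv and Abcb8. That covariate moved Slc39a14 from -0.27 to -0.05 (adjusted p = 0.855), Cpox from -0.34 to -0.21 (adjusted p = 0.336) and Iba57 from 0.36 to 0.20, each without a call, while Hjv moved from 0.24 to 0.49 and Abcb8 from -0.31 to -0.60. Steap2 at 0.78 (adjusted p = 0.204), Cd163 at -0.35 (adjusted p = 0.189), Cisd2 at 0.23 (adjusted p = 0.114) and Glrx5 at 0.42 (adjusted p = 0.104) also lost their calls with it. The index partly follows genotype, and standard errors were larger in this fit (Steap2 from 0.20 to 0.33, Glrx5 from 0.091 to 0.145). A call lost there does not show that the difference is absent. Genes called higher and lower stood in several sub-lists together, so no sub-list of the pathway with more than 1 call moved in 1 direction.

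**Figure D4:**
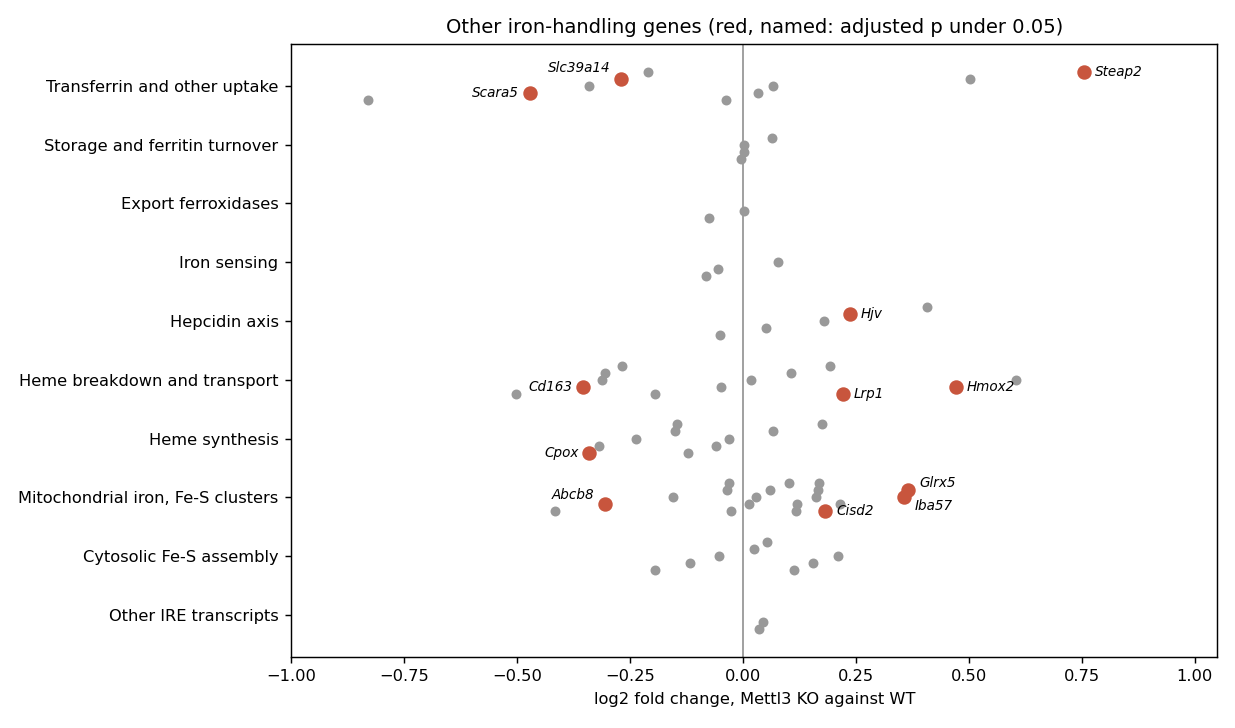
Log2 fold change (Mettl3 KO against WT, horizontal axis) of the 76 further iron genes tested, 1 point per gene, in 10 rows by role (the small vertical spacing within a row has no meaning). The 12 genes with an adjusted p under 0.05 are red and named, from Steap2 at 0.75 to Scara5 at -0.47, and lie on both sides of 0.

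Among 10 other uptake genes 3 were called. Scara5, a ferritin receptor, had 160, 156, 178 and 151 in WT hearts against 108, 129, 105 and 123 in Mettl3 KO hearts, with no overlap, a log2 fold change of -0.47 (SE 0.09, adjusted p = 0.00136). This call was kept with each library left out. Slc39a14 (ZIP14), which takes up iron that is not bound to transferrin, had 294, 298, 333 and 314 in WT hearts against 290, 261, 236 and 242 in Mettl3 KO hearts. It fell by 0.27 on the log2 scale (SE 0.07, adjusted p = 0.0178), and the call was lost without Mettl3 KO replicate 3 or 4 or WT replicate 3 or 4, with an adjusted p of up to 0.0885. Steap2, a metalloreductase of endosomes, had 18, 20, 22 and 14 in WT hearts against 30, 34, 26 and 37 in Mettl3 KO hearts. It rose by 0.75 (SE 0.20, adjusted p = 0.0213), and the call was lost without Mettl3 KO replicate 2 or 4 or WT replicate 4, with an adjusted p of up to 0.0848. Thus the called receptor and transporter of this sub-list were lower and the called reductase was higher.

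In heme breakdown and transport 3 of 13 genes were called. Hmox2, the constitutive heme oxygenase, had 157, 164, 180 and 182 in WT hearts against 241, 227, 254 and 226 in Mettl3 KO hearts. All Mettl3 KO libraries lay above all WT libraries, a log2 fold change of 0.47 (SE 0.07, adjusted p = 0.000196). It was the single gene of the 12 that stayed past the threshold in all 19 alternatives, with values of 0.43 to 0.56. Its inducible counterpart Hmox1, given above, was at 0.12 with an interval of -0.27 to 0.52. Whether the changes of Hmox1 and Hmox2 differ was not tested. Cd163, the macrophage receptor for hemoglobin bound to haptoglobin, had 255, 189, 220 and 178 in WT hearts against 161, 168, 162 and 161 in Mettl3 KO hearts, with a log2 fold change of -0.35 (SE 0.09, adjusted p = 0.0168). It was lost without WT replicate 1 or 3 or Mettl3 KO replicate 3 or 4 (adjusted p of up to 0.0862). Lrp1, which takes up heme bound to hemopexin among many other ligands, had 1737, 1545, 1815 and 1489 in WT hearts against 1962, 1780, 1971 and 1947 in Mettl3 KO hearts. It rose by 0.22 (SE 0.05, adjusted p = 0.00913) although the genotypes overlapped, and was lost without Mettl3 KO replicate 3 or WT replicate 2 or 4 (adjusted p of up to 0.0551). Of 8 fibroblast markers 7 were called higher, with sums of 3648 to 4172 in WT and 4711 to 5671 in Mettl3 KO libraries, and fibroblasts are known to express Lrp1 and Scara5. Lrp1 was higher, as these markers were, whereas Scara5 was lower. The part of fibroblasts in these 2 values was not tested.

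In heme synthesis 1 of 10 genes was called. Cpox, coproporphyrinogen oxidase of the mitochondrial intermembrane space, had 237, 229, 251 and 204 in WT hearts against 191, 182, 174 and 178 in Mettl3 KO hearts. It fell without overlap, by 0.34 on the log2 scale (SE 0.07, adjusted p = 0.00463), and was kept with each library left out. Alas2, the erythroid first enzyme, holds the same IRE pattern in its 5′ UTR (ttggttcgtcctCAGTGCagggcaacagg, the C at position 90) and had 51 to 114 counts, with a log2 fold change of -0.32 (SE 0.17, adjusted p = 0.308). It is shown because it is a 5′ UTR hairpin outside the 10 genes. Of the 5 genes whose UTR hairpins are printed here 1, Tfrc, was called.

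Mitochondrial iron and iron-sulfur cluster genes held 4 calls among 19. Glrx5, which passes on new iron-sulfur clusters, had 89, 103, 105 and 113 in WT hearts against 132, 137, 134 and 125 in Mettl3 KO hearts, a log2 fold change of 0.37 (SE 0.09, adjusted p = 0.0136). Iba57, a late-acting assembly factor, had 108, 115, 111 and 106 in WT hearts against 122, 156, 146 and 142 in Mettl3 KO hearts, a log2 fold change of 0.36 (SE 0.09, adjusted p = 0.0144). Both sets of libraries separated. The Glrx5 call was lost without Mettl3 KO replicate 2 or WT replicate 1 (adjusted p of up to 0.0596) and the Iba57 call without Mettl3 KO replicate 2 or 3 (adjusted p of up to 0.0685). Cisd2, an iron-sulfur protein of the outer mitochondrial and reticulum membranes, had 460, 427, 462 and 473 in WT hearts against 534, 487, 522 and 524 in Mettl3 KO hearts. It rose by 0.18 (SE 0.05, adjusted p = 0.0332), and kept its call in 2 of 8 fits with a library left out, those without Mettl3 KO replicate 2 or WT replicate 4. Abcb8, an inner-membrane transporter tied to mitochondrial iron export, had 153, 163, 141 and 150 in WT hearts against 100, 135, 133 and 125 in Mettl3 KO hearts. It fell by 0.31 on the log2 scale (SE 0.09, adjusted p = 0.0497), at the edge of the threshold, and among the 8 fits with a library left out it kept its call in 1, that without WT replicate 3. Over all 19 alternatives Abcb8 was past the threshold in 8. Cardiomyocyte markers gave 1 call of 8, the lower Ryr2, with sums of 90658 to 97325 in WT and 88091 to 98581 in Mettl3 KO libraries.

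On the hepcidin axis 1 of 5 genes was called. Hjv, hemojuvelin, a BMP co-receptor that raises hepcidin in liver and is also made in striated muscle, had 452, 447, 489 and 407 in WT hearts against 611, 502, 523 and 484 in Mettl3 KO hearts. It rose by 0.24 (SE 0.07, adjusted p = 0.0314) with overlap, since WT replicate 3 lay above Mettl3 KO replicate 4, and among the 8 fits with a library left out it kept its call in 2, those without Mettl3 KO replicate 4 or WT replicate 3. Without WT replicate 4 the adjusted p was 0.131.

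In the remaining sub-lists limma called 0 of 19 genes (1 had an unadjusted p under 0.05), namely 4 of storage, 2 ferroxidases, 3 of sensing, 8 of cytosolic iron-sulfur assembly and 2 other transcripts known for an IRE. Herc2, the ligase that marks NCOA4 for breakdown, had means of 1194 ± 23.6 and 1196 ± 18.8 (SD, n = 4 each), a log2 fold change of 0.00. Cp, ceruloplasmin, the ferroxidase that works with ferroportin, had 825 ± 59.3 and 825 ± 38.4. Epas1, a hypoxia factor known for an IRE, had no match to the pattern in the transcript used. Its means were 1270 ± 39.2 and 1199 ± 36.9, a log2 fold change of -0.08 (SE 0.04, adjusted p = 0.240). Ciao1, of the cytosolic iron-sulfur targeting complex, was at 0.16 (adjusted p = 0.279). The listed genes Tf, Ftmt, Hephl1, Tmprss6 and Erfe were not analysed here, and Tfr2, Hamp2 and Hpx had a mean value under 1.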

How the data were processed

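The authors sequenced stranded total RNA as 72-base single-end reads. Per their methods and processing notes, reads were trimmed (Trimmomatic 0.39), aligned to mm39 (STAR 2.7.11a), stripped of duplicates (Picard 3.1.1) and of multi-mapping reads, counted over exons by strand (featureCounts 2.0.4) and normalized with DESeq2 1.36.0. The deposited values are therefore a score, normalized read counts rounded to whole numbers by the authors, and not raw counts. Tools for counts were thus not used in the main fit, and voom weights were run only as an alternative. Every column matched a sample of the labels (columns not used: 0).

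limma 3.58.1 (R 4.3.3) was run on log2(value + 1) of the 20313 of 23045 genes averaging 1 or more. The model had a mean-variance trend and no term but genotype. Tests were two-sided, adjusted by Benjamini-Hochberg over all tested genes and called at an adjusted p under 0.05. On simulated data with changes of 1 on the log2 scale and a fixed dispersion of 0.005, the fit recovered 60.1% of 193 changed genes. It recovered 94.6% of the 111 averaging 20 or more, while 2.52% of calls were false. Most differences reported here were smaller, and Tfrc libraries varied by 11.1% (CV) in WT and 24.5% in Mettl3 KO hearts. These shares therefore need not hold for the genes reported.

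Named are the 10 members, every called gene of the wider list, the most abundant gene of each sub-list without a call (1 of these is not reported here), near-copies, and the 3 genes most like each of the 3 members with the smallest adjusted p. Alas2 and the atrial genes were named, and Myl7, Bmp10 and Sln picked for the index, after their values were seen. The members and lists were chosen with earlier results of these data known. Transcripts and exon lengths came from GENCODE vM21, an earlier build, of which no genome coordinates were used, and gene positions in the text are mm39, as deposited. Python 3.11.15, pandas 2.3.3 and matplotlib 3.10.9 were used for the rest. The 19 alternatives were other scalings, filters, pseudocounts, no trend, voom weights, a replicate block, each library left out, and an atrial index added after seeing the data.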

Additional observations from a re-analysis of the deposited data

Results flagged for a closer look

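For the 51 genes named with a value or a call, and for the library totals, the gap between an extreme library and its nearest neighbour was divided by the range of the 4 libraries of a genotype, and compared with Dixon's 95% critical value. It was above that value in 11 of 104 groups, where chance would give 5.2. Mettl3 KO replicate 1 was the highest for Slc40a1, with 134 while the others had 109 to 113 (0.84), and for Gucy1a2, with 85 while they had 76 to 77 (0.889). It was the lowest for Kcnj3, with 438 beside 565 to 572 (0.948). Mettl3 KO replicate 2 was the highest for Cd163, with 168 beside 161 to 162 (0.857), and the lowest for Lrp1, with 1780 beside 1947 to 1971 (0.874). For Pwp2, Mettl3 KO replicate 4 had 104 and the others 86 to 89 (0.833). Among WT libraries, replicate 4 was the highest for Pam, with 1539 beside 1463 to 1475 (0.842), and replicate 3 for Ryr2, with 10427 beside 9666 to 9731 (0.915). For Fth-ps3 in both genotypes and Hamp2 in WT hearts a single library had 1 to 3 counts and the others 0, so the share was 1 by construction.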

How the results depend on the processing

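Of 189 member values under the alternatives, 169 kept their direction and their side of the threshold, 8 lost a call, 2 gained one and 10 changed sign. With 1 library left out at a time the log2 fold change ranged from -0.51 to -0.27 for Tfrc, from -0.41 to -0.23 for Slc40a1, from -0.049 to 0.020 for Fth1, from -0.14 to 0.017 for Slc11a2, from -0.079 to 0.020 for Ncoa4, from -0.045 to 0.20 for Hmox1, from -0.24 to -0.076 for Ftl1, from -0.15 to -0.057 for Aco1, from 0.00068 to 0.026 for Ireb2 and from 0.77 to 1.77 for Hamp. The count of called members then ranged from 0 to 2, that of the wider list from 5 to 10, and that of all tested genes from 1019 to 1596, against 1, 12 and 1607. Without the mean-variance trend Tfrc kept -0.35 but lost its call, and the counts were 0, 1 and 321. With the atrial index as a covariate, Tfrc was at -0.064 without a call, Fth1 at 0.080, Slc11a2 at 0.11, Ireb2 at -0.015 and Hamp at -0.65. Hmox1 was at 0.40 in that fit, without a call, and the counts were 0, 7 (5 of them among the 12) and 903. Ireb2 was at -0.0055 with equal upper quartiles. The causes were not tested. Hamp was at 0.87 with a pseudocount of 4, and could not be fitted with a filter at a mean value of 10.

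With the replicate number as a block (replicate block) Tfrc was at -0.35 (adjusted p = 0.0161), and 1 member, 11 genes of the wider list and 1346 of all genes were called. Steap2 (adjusted p = 0.0501) and Abcb8 (adjusted p = 0.0678) lost their calls. Deviations of same-numbered libraries correlated at 0.0522, 0.0421, -0.0414 and 0.0878. WT replicates 1 and 4 correlated best with their own number and WT replicates 2 and 3 did not. Such weak correlations cannot decide whether same-numbered libraries were paired. Depth limits Hamp most, at 0 to 21 counts per library.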
